A study of Mus musculus with 8 samples.

Results

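The genes described here are 28 mouse genes for making, sensing, taking up and exporting cholesterol, followed in liver RNA after an adenovirus carrying Cux2. They were chosen by name: a probe belonged to a gene when its gene name on the array, or the current symbol of its transcript accession, was in the list. The list was drawn up with earlier results of these data known. All 28 were on the array with 55 probes, 18 genes having several probes and 10 having 1. They were tested among 22225 genes in all. Where a gene had several probes, the brightest over the 8 arrays stood for it. Each of the 28 probes was well above background in both channels on all 8 arrays, and 0 of their spots were saturated.

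The mice were 8-week-old ICR scid mice, a strain with a mutation that leaves it without mature T and B lymphocytes, so the livers were those of immune-deficient hosts in every group. Adeno-Cux2, an adenovirus that carries the homeobox transcription factor Cux2, was compared with Adeno-CMV, the control adenovirus, in males after 3 days, in males after 5 days and in females after 5 days. Untreated males were compared with untreated females. Each of the 4 comparisons had 2 arrays, and each array held a pool of each group, made of 3 to 7 mice, with the dyes reversed between the arrays. The dose and route of the virus and the promoter that drives Cux2 are not given in the sources used here. Values after ± are standard errors of the model. The model took the spread of a gene as common to the 4 comparisons, so each cholesterol gene had the same error in all of them. The error is thus not the gap between the 2 arrays printed beside it. At day 3 Abcg5 had arrays of −0.77 and −0.18 with an error of 0.11. Msmo1 had arrays of −1.28 and −1.34 with an error of 0.23. The error of a value covers the spread between pools and not that between mice, and n is 2 arrays throughout.

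Mammalian cells build cholesterol from acetyl-CoA through mevalonate, isoprenoid diphosphates, squalene and lanosterol. When sterols in the endoplasmic reticulum run low, the escort protein Scap carries the sterol regulatory element binding proteins to the Golgi, where they are cleaved and freed to switch on the synthesis genes; when sterols are plentiful, Insig proteins hold Scap back. The liver also takes up cholesterol from lipoproteins and sends it out into plasma lipoproteins and bile.

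Cux2 itself was read first, as a check of the labels. Its log2 ratio, Adeno-Cux2 over Adeno-CMV, was 0.39 and 0.58 on the 2 male day 3 arrays, 0.61 and 0.60 on the male day 5 arrays, and −0.58 and −0.65 on the female day 5 arrays, so the female pools are called here by their label. In untreated livers Cux2 was lower in males than in females, with log2 ratios of −1.74 and −2.02. Whether the probe reads the part of Cux2 in the virus is not stated. Green median signals ranged from 343 to 442 with local backgrounds from 289 to 315, and red ones from 430 to 512 with backgrounds from 327 to 342.5. One slide carried the untreated and male day 5 arrays, and another carried those of males at day 3 and of females.

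At day 3 in males, cholesterol synthesis genes were lower after Adeno-Cux2. Of the 28 genes, 21 were lower and 0 higher at an adjusted p under 0.05 in limma, a linear model with moderated tests, and 27 had a log2 ratio below 0. The median log2 ratio of the 28 was −0.73, beside 0.00 over all genes tested (−0.00245). Of all 22225 genes, 44% passed the test at day 3 and 20.3% passed it as lower, so day 3 was a comparison in which many genes moved. By role, 5 of 7 genes of the early steps, 9 of 11 genes of the squalene and sterol steps, 3 of 4 regulators and 4 of 6 transport genes were lower. In RNA of whole liver, fewer cells of a type and less RNA per cell cannot be told apart.

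The arrays of day 3 differed in depth of change. The median of the 28 log2 ratios was −0.62 on the replicate 1 array and −0.94 on the replicate 2 array. Both arrays were below 0 for 26 genes, both were above 0 for 1 gene and they had opposite signs for 1 gene. The ratio was further below 0 on replicate 2 for 21 genes, and the arrays lay more than 0.5 apart for 10. Both arrays were at or below −0.5 for 13 genes.

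**Figure D1:**
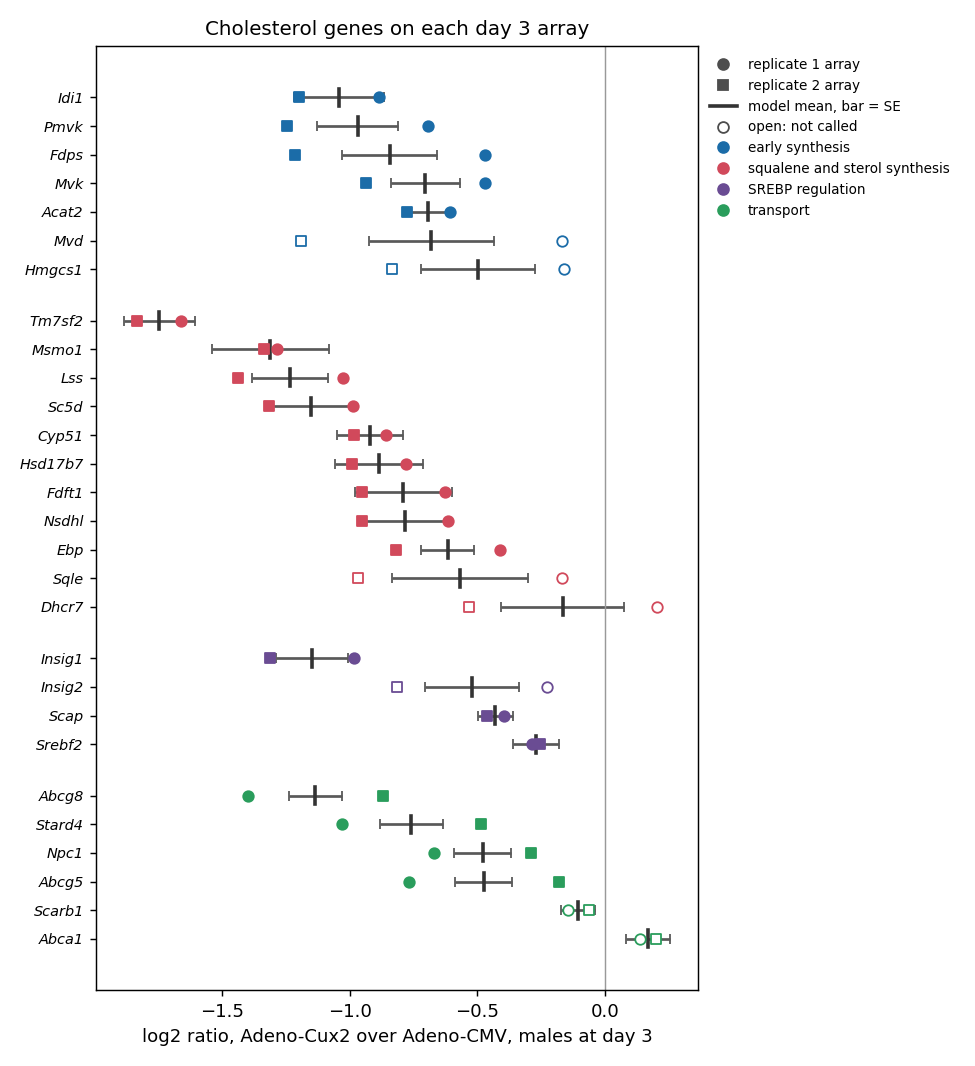
Log2 ratio, Adeno-Cux2 over Adeno-CMV, of the 28 genes in males at day 3, by role; circles are the replicate 1 array, squares the replicate 2 array, ticks the model mean with its standard error, and open symbols genes that did not pass the test. Synthesis genes lie further left on replicate 2 and the transport genes Abcg8, Abcg5, Stard4 and Npc1 further left on replicate 1.

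The early steps lead from acetyl-CoA to farnesyl diphosphate. Acat2, which joins acetyl-CoA units into acetoacetyl-CoA, was lower on both day 3 arrays, at −0.61 on replicate 1 and −0.78 on replicate 2 (model mean −0.69 ± 0.09, adjusted p = 0.000836). Its arrays lay closest together of the 7 early genes. Mvk, which phosphorylates mevalonate, had −0.47 and −0.94 and fell by 0.70 on the log2 scale (adjusted p = 0.00579). Pmvk, the next kinase, had −0.69 and −1.25 and fell to 51.1% of the Adeno-CMV level (−0.97 ± 0.16, adjusted p = 0.00278). Idi1, which interconverts the isoprenoid building blocks isopentenyl and dimethylallyl diphosphate, had −0.88 and −1.20 and fell to 48.6% of the Adeno-CMV level (−1.04 ± 0.18, adjusted p = 0.00341). Fdps, which makes farnesyl diphosphate, had −0.47 and −1.22 (−0.84 ± 0.19, adjusted p = 0.0104). In all 5 the replicate 2 array was the lower one.

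Hmgcs1 and Mvd did not pass the test at day 3. Hmgcs1, the cytosolic synthase that makes the precursor of mevalonate, had log2 ratios of −0.16 and −0.83 (−0.50 ± 0.22, adjusted p = 0.118). Its intensity was 17905 and 23688 units in the Adeno-Cux2 pools, against 20028 and 42227 in the Adeno-CMV pools, in arbitrary units normalized within each array. The replicate 2 Adeno-CMV pool stood apart from the other 3. Intensities were not scaled between arrays, so ranks of pools from different arrays, here and below, also carry the brightness of each array. The share of all genes whose pools did not overlap was not counted, for this or any later comparison of pools. Mvd, which decarboxylates mevalonate diphosphate, had −0.17 and −1.19 (−0.68 ± 0.24, adjusted p = 0.0614). Both arrays of these genes were below 0, and the gap between them was larger than the change.

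The squalene and sterol steps held the largest changes among the 28 genes. Tm7sf2, a sterol reductase that acts after the demethylation of lanosterol, had log2 ratios of −1.66 on replicate 1 and −1.83 on replicate 2. Its intensity was 6983 and 9360 units in the Adeno-Cux2 pools, against 22077 and 33344 in the Adeno-CMV pools, so that each Adeno-Cux2 pool lay below both Adeno-CMV pools. The model put it 3.36-fold lower (−1.75 ± 0.14, adjusted p = 0.000135). The probe lies on chromosome 19 at 6062882 to 6062941 of mm8, the build of the array's annotation; whether it lies in a coding exon or a UTR was not looked up.

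Msmo1, an oxidase that removes methyl groups from lanosterol derivatives, was listed under its older name Sc4mol. It had 18143 and 23186 units in the Adeno-Cux2 pools, against 44179 and 58617 in the Adeno-CMV pools, and both arrays gave nearly the same ratio (−1.28 and −1.34). The model gave −1.31 ± 0.23 (2.48-fold lower, adjusted p = 0.0039). Lss, which closes squalene epoxide into lanosterol, had 1127 and 1421 units in the Adeno-Cux2 pools, against 2298 and 3853 in the Adeno-CMV pools. These pools did not overlap, and the model gave −1.23 ± 0.15 (2.35-fold lower, adjusted p = 0.000773). The other probes of Lss, which were dimmer, gave −0.38 and −0.44, the same direction at a smaller size.

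Sc5d, a sterol desaturase, had 22958 and 23976 units in the Adeno-Cux2 pools, against 45551 and 59747 in the Adeno-CMV pools (−1.15 ± 0.16, 2.22-fold lower, adjusted p = 0.00141). A second probe of it gave −1.49. Cyp51, the cytochrome P450 that demethylates lanosterol, had log2 ratios of −0.86 and −0.98 (−0.92 ± 0.13, adjusted p = 0.00143), and its other probes gave −0.83 and −1.08. All 3 probes of Cyp51 were lower to a like extent.

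The remaining sterol genes fell by less. Hsd17b7, a sterol ketone reductase, had −0.78 and −0.99 (−0.89 ± 0.17, adjusted p = 0.00592). Fdft1, the squalene synthase, had −0.63 and −0.95 (−0.79 ± 0.19, adjusted p = 0.0149), and Nsdhl, a sterol dehydrogenase, had −0.62 and −0.95 (−0.78 ± 0.17, adjusted p = 0.00959). Ebp, a sterol isomerase, had −0.41 and −0.82 (−0.62 ± 0.10, adjusted p = 0.00322). Each of these had both arrays below 0.

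Sqle and Dhcr7 did not pass. Sqle, the squalene epoxidase, had −0.17 on replicate 1 and −0.97 on replicate 2 (−0.57 ± 0.27, adjusted p = 0.134). Dhcr7, the reductase of the last step to cholesterol, was the only gene of the 28 with arrays of opposite sign, at 0.20 and −0.53 (−0.17 ± 0.24, adjusted p = 0.621). Its intensity was 14098 and 13836 units in the Adeno-Cux2 pools, against 12256 and 20025 in the Adeno-CMV pools, so the groups overlapped. Hmgcs1, Mvd, Sqle and Dhcr7 were thus the 4 of 18 synthesis genes that did not pass, and in each the replicate 1 array was near or above 0 while replicate 2 was clearly below it.

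**Figure D2:**
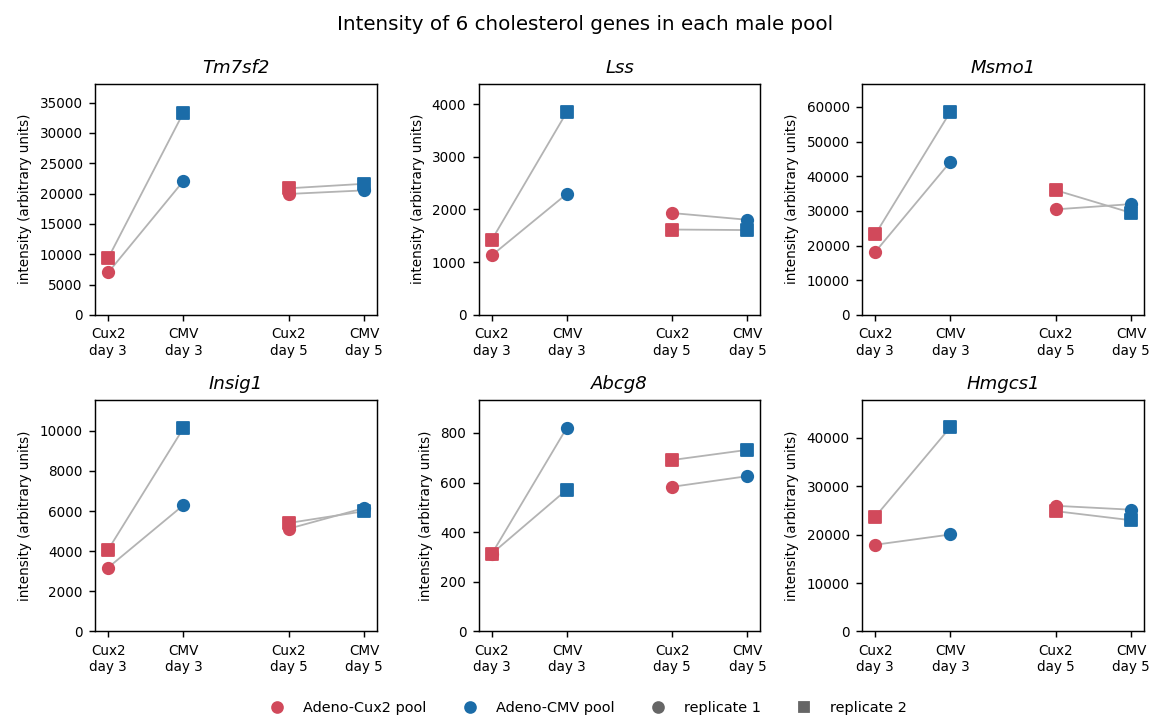
Intensity (arbitrary units, normalized within each array) of 6 genes in each male pool, Adeno-Cux2 left and Adeno-CMV right at day 3 and at day 5; circles are replicate 1, squares replicate 2, and a line joins the pools of 1 array. At day 3 every Adeno-Cux2 pool of Tm7sf2, Lss, Msmo1, Insig1 and Abcg8 lies below both Adeno-CMV pools, while at day 5 the groups overlap for all of these but Insig1. Intensities were not scaled between arrays, and how many of all genes had pools that did not overlap was not counted.

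Of the regulators, Insig1, which anchors Scap in the endoplasmic reticulum, changed most. It had 3183 and 4079 units in the Adeno-Cux2 pools at day 3, against 6294 and 10131 in the Adeno-CMV pools. The groups did not overlap, and the model gave −1.15 ± 0.14 (2.22-fold lower, adjusted p = 0.000774), with −0.74 for its dimmer probe. Scap had −0.40 and −0.46 (−0.43 ± 0.07, adjusted p = 0.0027). Srebf2, which encodes the binding protein that switches on the synthesis genes, had −0.29 and −0.25 (−0.27 ± 0.09, adjusted p = 0.0487), and its other probes gave −0.42, −0.05 and −0.07. The Srebf2 value passed by a small margin, and its call was lost in 12 of 17 alternative settings, with adjusted p between 0.0285 and 0.468. Insig2, the related anchor, had −0.23 and −0.81 and did not pass (−0.52 ± 0.18, adjusted p = 0.0596).

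Transport genes showed a different order of the arrays. Abcg8, which pairs with Abcg5 to pump sterols into bile, had 312 and 313 units in the Adeno-Cux2 pools, against 822 and 572 in the Adeno-CMV pools (−1.13 ± 0.10, 2.20-fold lower, adjusted p = 0.000229). Its groups did not overlap, and its dimmer probe gave −0.55. Abcg5 had −0.77 and −0.18 (−0.48 ± 0.11, adjusted p = 0.0132), with 13646 and 14983 units in the Adeno-Cux2 pools, against 23266 and 16987 in the Adeno-CMV pools. Stard4, a soluble sterol carrier, had −1.03 and −0.49 (−0.76 ± 0.12, adjusted p = 0.00273), and its dimmer probes gave −0.33 and −0.37. Npc1, which moves cholesterol out of lysosomes, had −0.67 and −0.29 (−0.48 ± 0.11, adjusted p = 0.0122), while a dim second probe of it gave 0.02. All 4 were lower on replicate 1 than on replicate 2, opposite to the synthesis genes.

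Scarb1 and Abca1 did not pass at day 3. Scarb1, the receptor that takes up cholesterol from high-density lipoprotein, had −0.15 and −0.06 (95% confidence interval −0.27 to 0.06, adjusted p = 0.257). Abca1, which loads cholesterol onto apolipoproteins, had 0.14 and 0.20 (95% confidence interval −0.04 to 0.38, adjusted p = 0.163) and was the only gene of the 28 above 0 on both arrays. Neither interval excludes 0.

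The day 3 count rested more on one array than on the other. It was 11 without the replicate 2 array and 19 without the replicate 1 array, in fits where the remaining array was taken to vary like the other groups. Calls of 8 genes held in all 17 alternative settings: Acat2, Pmvk, Lss, Cyp51, Tm7sf2, Sc5d, Insig1 and Abcg8. On the replicate 2 array, all 7 exocrine pancreas genes tested were also above 0, with a median log2 ratio of 2.81, against −0.04 on replicate 1. Their summed intensity at day 3 was 712 and 15924 units in the Adeno-Cux2 pools, against 741 and 1876 in the Adeno-CMV pools. The 8 hepatocyte markers, all well above background on every array, had a median of −0.55 on replicate 2 (8 of 8 below 0) and 0.02 on replicate 1 (4 of 8 below 0). Their summed intensity at day 3 was 1488726 and 1040956 units in the Adeno-Cux2 pools, against 1129935 and 1697614 in the Adeno-CMV pools. Their median was also lower on replicate 2 than on replicate 1 in the other comparisons. On replicates 1 and 2 it was −0.10 and −0.87 in untreated mice, 0.54 and 0.00 in males at day 5, and 0.55 and 0.10 in females. Dye and replicate number change together, so they cannot be told apart in this gap. On the day 3 replicate 1 array, 17 of 18 synthesis genes were below 0 with a median of −0.62. The part of the pancreas and hepatocyte genes in the result was not tested.

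Where promoters were concerned, 22 of the 28 genes had an entry among RefSeq promoter windows of 300 bases on GRCm38.p6, each 250 bases before to 50 after a start, and a gene may have several windows. Fdps, Fdft1, Sqle, Stard4, Npc1 and Scarb1 had none in the table. Both strands were searched for the letters CCAAT, the box bound by NF-Y, GGGCGG, a box bound by Sp1, and TCACNCCAC, a core form of the sterol regulatory element. The factors NF-Y and Sp1 are known to act beside the sterol regulatory element binding proteins on synthesis promoters. CCAAT was found in windows of 19 of 22 genes (86.4%), beside 41.1% of 27025 genes in the table and 37.4% of 32851 windows. GGGCGG was found in 19 of 22 (86.4%), beside 38.2% of genes and 35.7% of windows. Both were found in 16 of 22, beside 15.8% of genes. Windows of a gene were pooled, so the boxes need not share a window. Abcg5 and Abcg8 were counted apart although their windows overlap, and Abcg5 had no CCAAT in the 250 bases before its start. TCACNCCAC was found in 1 of 22, Hmgcs1, beside 1.44% of genes and 1.24% of windows. No 2 different motifs overlapped in these windows (0 pairs). The counts describe letters in these windows and were not tested.

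The 250 bases before the start are shown for Tm7sf2, Msmo1 and Lss, whose brightest probes fell furthest at day 3. They are also shown for Hmgcs1, which holds the sterol element core. They are at chr19:6067851-6068100 (minus strand), chr8:64733579-64733828 (minus strand), chr10:76531355-76531604 (plus strand) and chr13:119690101-119690350 (plus strand) of GRCm38.p6, written 5′ to 3′ on the gene's strand, with the 3 motifs in capitals on either strand.
Tm7sf2: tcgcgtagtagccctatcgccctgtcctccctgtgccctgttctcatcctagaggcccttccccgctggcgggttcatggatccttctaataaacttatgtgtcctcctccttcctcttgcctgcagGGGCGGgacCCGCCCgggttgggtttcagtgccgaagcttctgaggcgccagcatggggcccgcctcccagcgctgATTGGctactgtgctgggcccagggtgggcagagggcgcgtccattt
Msmo1: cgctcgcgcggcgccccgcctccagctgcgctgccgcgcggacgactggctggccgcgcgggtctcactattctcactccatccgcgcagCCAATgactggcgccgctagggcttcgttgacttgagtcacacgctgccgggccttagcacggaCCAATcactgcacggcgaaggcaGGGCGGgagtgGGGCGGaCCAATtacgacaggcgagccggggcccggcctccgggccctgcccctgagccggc
Lss: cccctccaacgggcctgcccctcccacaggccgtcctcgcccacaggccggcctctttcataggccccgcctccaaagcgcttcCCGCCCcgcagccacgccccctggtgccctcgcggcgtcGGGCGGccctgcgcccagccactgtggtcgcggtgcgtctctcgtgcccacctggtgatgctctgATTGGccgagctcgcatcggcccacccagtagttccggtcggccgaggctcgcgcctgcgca
Hmgcs1: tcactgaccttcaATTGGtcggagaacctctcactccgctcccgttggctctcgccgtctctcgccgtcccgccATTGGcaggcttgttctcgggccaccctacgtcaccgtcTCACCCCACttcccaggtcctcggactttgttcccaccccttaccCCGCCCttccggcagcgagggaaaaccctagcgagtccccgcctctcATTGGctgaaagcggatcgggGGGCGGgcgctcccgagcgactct
Before the start, Tm7sf2 and Lss each hold 1 CCAAT and 2 GGGCGG on either strand, and Msmo1 holds 3 and 2. Hmgcs1 holds 3 and 2 as well, and its sterol element core begins 137 bases before the start.

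Abcg5 and Abcg8 lie head to head, so the stretch before one start runs into the other gene. The starts at 84683011 (Abcg5, minus strand) and 84683121 (Abcg8, plus strand) of chromosome 17 leave 109 bases between them. The stretch before Abcg8, at chr17:84682871-84683120, is shown because it takes in those 109 bases, and the rest of it runs into Abcg5.
Abcg8: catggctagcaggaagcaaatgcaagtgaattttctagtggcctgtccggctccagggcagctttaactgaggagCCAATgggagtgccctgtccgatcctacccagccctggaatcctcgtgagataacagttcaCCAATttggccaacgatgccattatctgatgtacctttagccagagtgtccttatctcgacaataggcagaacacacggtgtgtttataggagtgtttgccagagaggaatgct
It holds 2 CCAAT, in capitals, both further from the Abcg8 start than the 109 bases, and neither of the other motifs.

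At day 5 in males, 0 of the 28 genes passed the limma test, against 18.8% of all genes, and 3 had an unadjusted p under 0.05. Their median log2 ratio, Adeno-Cux2 over Adeno-CMV, was 0.03, with 0.01 on replicate 1 and 0.05 on replicate 2, and 12 of 28 were below 0. The values ran from −0.33 to 0.31. Among synthesis genes the furthest from 0 was Dhcr7, with 0.10 and 0.36 (0.23 ± 0.24, adjusted p = 0.592). Among regulators it was Insig1, with −0.26 and −0.15 (−0.21 ± 0.14, adjusted p = 0.383). Among transport genes it was Stard4, with −0.39 and −0.28 (−0.33 ± 0.12, adjusted p = 0.119), and Abcg5 had 0.32 and 0.30 (0.31 ± 0.11, adjusted p = 0.111). Both arrays of Stard4 and of Abcg5 lay on the same side of 0.

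The genes lowest at day 3 were close to the control at day 5. Tm7sf2 had 19934 and 20866 units in the Adeno-Cux2 pools at day 5, against 20525 and 21609 in the Adeno-CMV pools. Lss had 1932 and 1619 units in the Adeno-Cux2 pools, against 1804 and 1609 in the Adeno-CMV pools. For both genes the groups overlapped. Insig1 had 5119 and 5404 units in the Adeno-Cux2 pools, against 6144 and 5989 in the Adeno-CMV pools, and Abcg8 had 583 and 691 units in the Adeno-Cux2 pools, against 626 and 732 in the Adeno-CMV pools. The groups overlapped for Abcg8 and not for Insig1, which did not pass the test. Over the 21 genes that were lower at day 3, the day 5 median was 0.01 with values from −0.33 to 0.31, and their 95% confidence intervals at day 5 lay within −0.63 to 0.68.

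The male response at day 5 was then compared with that at day 3 by a contrast in the same model. Of the 28 genes, 13 were higher at day 5 than at day 3 and 0 lower, against 12.9% of all genes in either direction and 8.11% higher, and all 28 differences were above 0. The median difference was 0.69, beside 0.02 over all genes. Tm7sf2 differed most (1.70 ± 0.20, adjusted p = 0.00524), followed by Msmo1 (1.42 ± 0.33, adjusted p = 0.0358) and Lss (1.29 ± 0.21, adjusted p = 0.0129). Sc5d, Cyp51 and Ebp of the sterol steps, Pmvk, Idi1 and Acat2 of the early steps, the regulators Insig1 and Scap, and both Abcg8 and Abcg5 also passed, with differences of 0.53 to 1.14.

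Genes of each role that did not pass this contrast included Fdft1 (1.02 ± 0.27, adjusted p = 0.0557), Insig2 (0.51 ± 0.26, adjusted p = 0.265) and Npc1 (0.55 ± 0.16, adjusted p = 0.0661). Srebf2 differed by 0.14 ± 0.13 and Abca1 by 0.05 ± 0.12. The contrast sets different pools on different slides against each other, so day and slide cannot be told apart. Its count was less steady than that at day 3: 0 genes passed without either male day 5 array, 2 without the day 3 replicate 2 array, 4 without background subtraction and 1, Tm7sf2, with the log ratios of the scanner software.

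**Figure D3:**
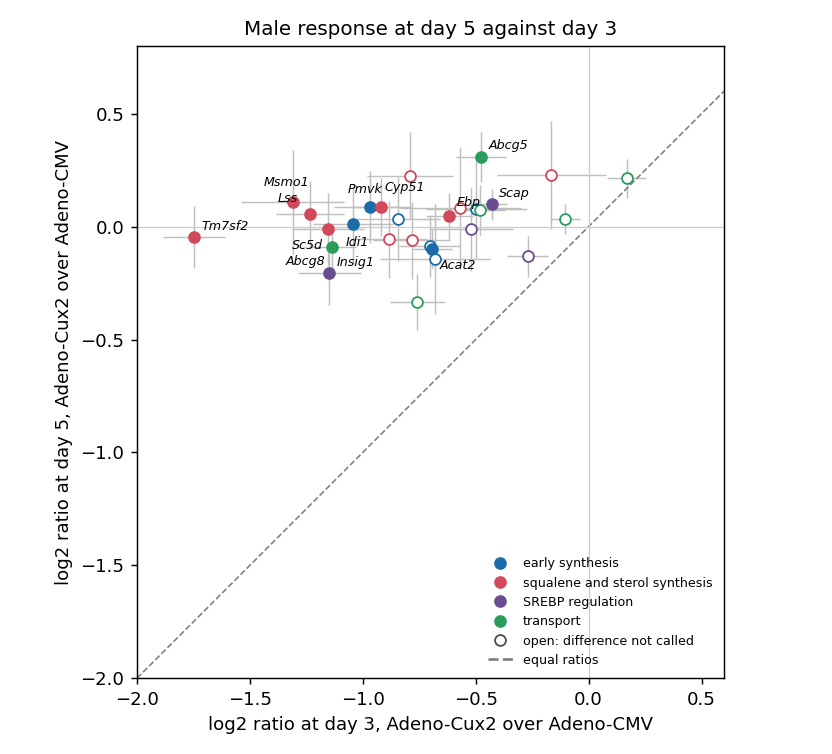
Log2 ratio, Adeno-Cux2 over Adeno-CMV, in males at day 5 (vertical axis) against day 3 (horizontal axis) for the 28 genes, with standard errors; filled points passed the test of the difference and the dashed line marks equal ratios. Day 5 values lie between −0.33 and 0.31 while day 3 values reach −1.75.

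In females at day 5, 1 of the 28 genes passed, against 19.1% of all genes, and 5 had an unadjusted p under 0.05. It was Abcg5, with 20183 and 21967 units in the pools labelled Adeno-Cux2, against 13979 and 13853 in the Adeno-CMV pools. The groups did not overlap, and the ratio was 1.51-fold higher (0.60 ± 0.11, adjusted p = 0.0123). Its partner Abcg8 had log2 ratios of 0.06 and 0.30 (0.18 ± 0.10, adjusted p = 0.311), and Stard4 had −0.48 and 0.08 (−0.20 ± 0.12, adjusted p = 0.334). The median of the 28 was −0.02.

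That median near 0 came from female arrays that disagreed. On replicate 1 the median was −0.23 and all 18 synthesis genes were below 0. On replicate 2 it was 0.20 and 16 of the 18 were above 0, and 19 of the 28 genes had opposite signs. Msmo1 had −0.91 and 0.45, Sqle −0.65 and 0.37, and Hmgcs1 −0.52 and 0.19. The pools of Msmo1 held 23320 and 41168 units with the Adeno-Cux2 label, against 43741 and 30211 with Adeno-CMV, so the groups overlapped. Tm7sf2 was below 0 on both arrays, at −0.74 and −0.08 (−0.41 ± 0.14, adjusted p = 0.0909), as was Insig1, at −0.58 and −0.13 (−0.35 ± 0.14, adjusted p = 0.136).

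The female count depended on the array. Without female replicate 2, 4 genes were called lower, namely Cyp51, Tm7sf2, Msmo1 and Insig1. The share of all genes passing in that fit is not given here. Exocrine pancreas and skeletal muscle genes also moved in the female pools. The 7 pancreas genes had medians of 4.27 on replicate 1 and −1.45 on replicate 2, with summed intensities of 211279 and 681 units in the pools labelled Adeno-Cux2, against 9445 and 1670 in the Adeno-CMV pools. The 6 muscle genes had medians of −1.18 and −2.89, and 4 of 6 were lower in the test, against 6.3% of all genes. Their part in the cholesterol values was not tested.

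**Figure D4:**
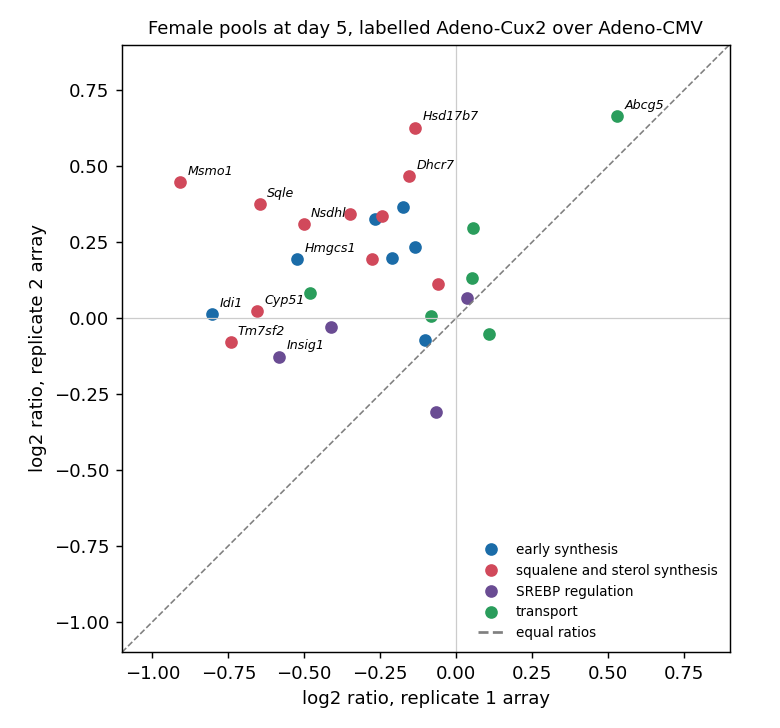
Log2 ratio of the 28 genes in female pools at day 5, labelled Adeno-Cux2 over Adeno-CMV, on the replicate 1 array (horizontal axis) against the replicate 2 array (vertical axis), coloured by role, with equal ratios on the dashed line. Most synthesis genes lie left of 0 and above 0, that is, with opposite signs, and Abcg5 lies above 0 on both arrays.

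The female response at day 5 was set against the male response at day 5. Of the 28 genes, 0 passed in limma, 0 had an unadjusted p under 0.05, and 0.207% of all genes passed, so few genes of any kind differed in this test. The furthest from 0 were Idi1 among synthesis genes (−0.40 ± 0.25, 95% confidence interval −1.004 to 0.194), Insig2 among regulators (−0.18 ± 0.26, −0.80 to 0.45) and Abcg5 among transport genes (0.29 ± 0.16, −0.09 to 0.66). These values take the female ratios as labelled, although the Cux2 probe was lower in the pools labelled Adeno-Cux2. Whether that probe reads the Cux2 of the virus is not stated. With the sign of the female ratios turned, an alternative chosen after seeing the data, 1 of 28 passed, Abcg5 (−0.91 ± 0.16, adjusted p = 0.00568), where 29.3% of all genes passed. The furthest from 0 were then Tm7sf2 among synthesis genes (0.46 ± 0.20), Insig1 among regulators (0.56 ± 0.20) and Abcg5 among transport genes. Here sex and slide cannot be told apart.

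In untreated livers, Abcg5 alone of the 28 passed, being lower in males (−0.77 and −0.32, −0.54 ± 0.11, adjusted p = 0.0291). It had 15434 and 25812 units in male pools, against 26324 and 32133 in female pools. On each array the male pool lay below the female pool. Of all genes, 11.1% passed this comparison. The median of the 28 was −0.135, with 21 of 28 below 0 and 5 at an unadjusted p under 0.05. Idi1 (−0.72 and −0.23, adjusted p = 0.138), Srebf2 (−0.28 and −0.38, adjusted p = 0.0656) and Abcg8 (−0.12 and −0.15, adjusted p = 0.439) lay furthest from 0 in their roles among genes that did not pass. On the untreated replicate 2 array, all 7 pancreas genes were above 0 with a median of 3.46, against −0.09 on replicate 1. The 8 hepatocyte markers had a median of −0.87 on replicate 2 (8 of 8 below 0) and −0.10 on replicate 1 (5 of 8 below 0). Of 14 macrophage markers, 7 passed as lower in males, against 6.14% of all genes. The hepatocyte median was lower on replicate 2 in every comparison, where dye and replicate number change together. The part of these markers in the untreated values was not tested. The Abcg5 call was lost in 5 of 17 alternative settings, with adjusted p between 0.0225 and 0.321, and the female day 5 call in 3 of 17, between 0.0114 and 0.188.

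Abcg5 was thus the one gene of the 28 that passed in 3 of the 4 comparisons. It was lower in untreated males than in females, lower at day 3 in males after Adeno-Cux2, and higher at day 5 in females with the Adeno-Cux2 label, while in males at day 5 it was 0.31 on the log2 scale without passing. Its day 3 call was lost in 3 of 17 alternative settings, and over the 17 its log2 ratio ran from −0.68 to −0.28. How many of all genes passed in 3 of the 4 comparisons was not counted. The probe of Abcg5 lies on chromosome 17 at 84566590 to 84566649 of mm8.

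**Figure D5:**
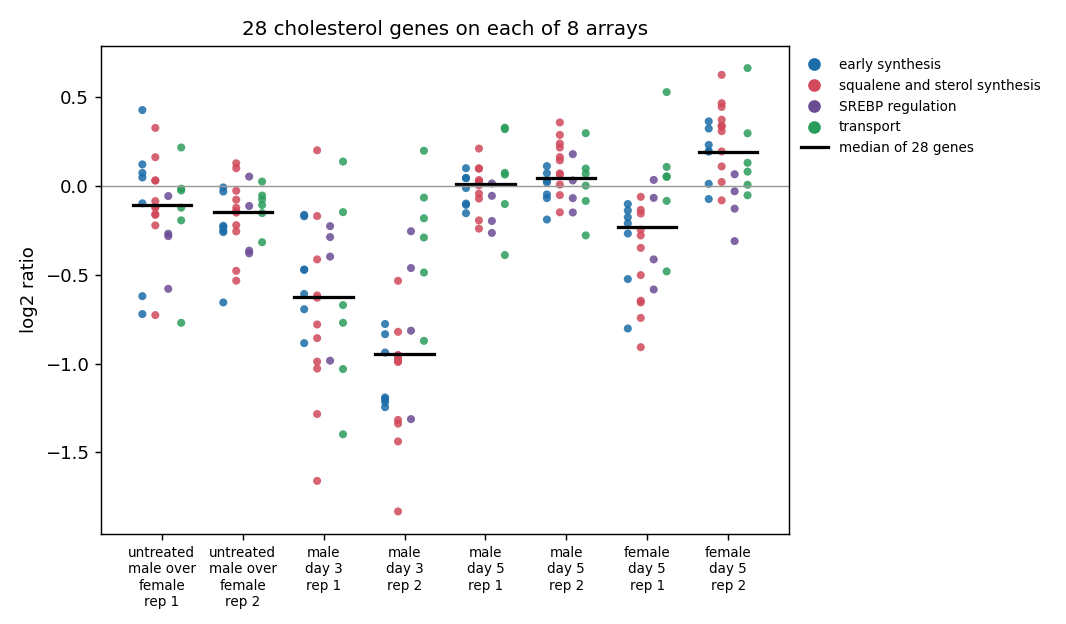
Log2 ratio of each of the 28 genes on each of the 8 arrays (male over female in untreated mice, Adeno-Cux2 over Adeno-CMV in treated mice), coloured by role, with the median of the 28 as a black line. The day 3 medians are −0.62 and −0.94, the male day 5 medians 0.01 and 0.05, and the female day 5 medians −0.23 and 0.20.

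Genes with several probes mostly agreed at day 3, where all probes had the same sign for 17 of 18 genes, Npc1 being the exception. In the untreated, male day 5 and female day 5 comparisons this held for 9, 12 and 12 of 18. The probe that stands for Idi1 is placed on chromosome 2 by the array's annotation, while RefSeq places Idi1 on chromosome 13, so which copy it reads is uncertain. Its dimmer probe gave −1.07 at day 3, close to the −1.04 of the brighter one.

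A further 31 genes of cholesterol handling lie outside the 28, in a list also chosen with earlier results of these data known. At day 3 in males, 10 of 31 were higher and 9 lower after Adeno-Cux2, where 23.7% of all genes tested were higher and 20.3% lower. The largest rises were in Gramd1b, which carries sterols from the plasma membrane to the endoplasmic reticulum (1.56 and 1.55, adjusted p = 9.85e-05), and Soat1, which esterifies cholesterol for storage (1.14 and 1.30, adjusted p = 0.000173). Abcg1, which exports cholesterol from macrophages and other cells, had 1.13 and 1.24 (adjusted p = 0.00014). Among the falls were those of 3 genes named for their change between the days: Pltp, the phospholipid transfer protein of plasma (−0.72 and −1.41, adjusted p = 0.000719), Stard5 (−0.84 ± 0.11) and Lcat, which esterifies plasma cholesterol (−0.70 and −0.69, adjusted p = 0.000416).

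At day 5 in males, 10 of these 31 were higher and 0 lower, against 13.9% of all genes higher and 4.95% lower, led by Abcg1 (1.68 ± 0.10), Gramd1b (1.52 ± 0.11) and Soat1 (1.49 ± 0.10). In females at day 5, 11 were higher and 1 lower, against 12.8% and 6.3% of all genes, led by Abcg1 (1.60 and 1.29), Gramd1b (1.42 and 1.34) and Rnf145, a ubiquitin ligase of the endoplasmic reticulum (1.20 and 1.03). In untreated mice 3 were lower in males, Abcg1 (−0.42 ± 0.10), Gramd1a (−0.35 ± 0.08) and Npc2 (−0.34 ± 0.08), and 0 higher, against 6.14% of all genes lower and 4.93% higher. Against day 3, 5 of the 31 were higher at day 5, with Pltp (1.496 ± 0.179), Stard5 (1.00 ± 0.16) and Lcat (0.79 ± 0.10) the largest, and 0 lower, against 8.11% of all genes higher and 4.83% lower. Gramd1b, Soat1 and Abcg1 were thus higher at both days in males, while 0 of the 18 synthesis genes passed at day 5. The difference between the female and male day 5 responses passed for 0 of the 31, with 2 at an unadjusted p under 0.05 in limma. Acat1, a mitochondrial thiolase, was the 1 lower in females (−0.80 ± 0.10).

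Markers of other cells moved in the same arrays. Of 14 macrophage markers, 5 were higher and 5 lower at day 3 in males, where 44% of all genes passed in either direction. At day 5, 12 were higher in males and 11 in females, against 13.9% of all genes higher in males and 12.8% in females. The median log2 ratio of the 14 at day 3 was 0.27 on replicate 1 (6 of 14 below 0) and −0.05 on replicate 2 (9 of 14 below 0). The resident macrophage genes Clec4f (−1.94 and −2.51) and Vsig4 (−1.61 and −2.19) were lower at day 3. Higher on both day 3 arrays were Cd68 (1.71 and 1.38), Lyz2 (1.67 and 1.36), Ctss (1.41 and 1.39) and Msr1 (1.22 and 1.14). The summed macrophage intensity at day 3 was 161026 and 172957 units in the Adeno-Cux2 pools, against 71909 and 88345 in the Adeno-CMV pools, and at day 5 in males it was 203336 and 258952 units in the Adeno-Cux2 pools, against 62151 and 81181 in the Adeno-CMV pools. Of 9 neutrophil markers, 7 were higher in each of the treated comparisons. Of the 4 markers of adrenal cortex tested, a tissue that also makes much cholesterol, 0 passed in any comparison. They were dim, with a summed intensity of 389 to 470 units, so a change could have been missed. Cyp11a1 was above background on 4 of 8 arrays in the numerator pools and on 4 in the denominator pools. The 8 hepatocyte markers, high in every pool, had 1 higher and 4 lower at day 3 in males, with a median of −0.27. Of all genes, 23.7% were higher and 20.3% lower at day 3. The part of these cells in the cholesterol values was not tested.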

How the data were processed

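Liver RNA pools were measured on 8 Agilent dual-colour 4x44k arrays, 2 for each of 4 comparisons. Scanner files came from Agilent Feature Extraction 9.5.3.1 (untreated, male day 5) and 10.7.1.1 (female day 5, male day 3), per the file headers. Per the file headers, a deposited intensity is a spot's median brightness, with a local background beside it, before any normalization. The deposited LogRatio is log10 of red over green as corrected by the software, and the series matrix holds the same numbers with replicate 2 turned in sign (largest gap 5e-06). Spot flags for background, saturation and outliers are deposited as 0 or 1.

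From the median signals, background was corrected by normexp (offset 50) and log2 ratios were normalized by loess within each array in limma 3.58.1 (R 4.3.3). No scaling between arrays was applied. Control and outlier spots had weight 0. Of 41174 probes, 33335 were kept, each being well above background in red or green on the pair of arrays of some comparison. Names came from RefSeq: 24375 probes by accession, 6301 by symbol, 2426 by synonym, and 8072 kept the file's name. The brightest probe stood for a gene. One limma model over 8 arrays held 4 comparisons and a dye term (3 residual degrees of freedom, prior 3.62), with Benjamini-Hochberg adjustment over 22225 genes and a call at an adjusted p under 0.05. Values after ± are standard errors, from a variance per gene that the comparisons share.

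Replicate 1 has the numerator in red and replicate 2 in green, so the dye term is also a replicate block. The labels give the number no other shared source, and the gap between the 2 arrays correlated across genes at −0.0945 to 0.296 between comparisons. The script was tested on simulated data. The alternatives were other background, normalization, probe, variance and filter settings, the software's log ratios, no block, 4 arrays of 1 slide, and leaving out each array. All 28 genes could be named, with every called one given and, of the others, the furthest from 0 in each role; of 31 further pathway genes, the 3 furthest from 0 per comparison among those called. The members and lists were chosen with earlier results of these data known.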

Additional observations from a re-analysis of the deposited data

Results flagged for a closer look

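The male response to Adeno-Cux2 at day 5 differed from that at day 3 for 13 genes, by the test of the difference itself in limma. The differences, day 5 minus day 3 in log2, were 0.59 for Acat2 (adjusted p = 0.025), 1.06 for Pmvk (0.0278) and 1.05 for Idi1 (0.0404) in the early steps. They were 1.29 for Lss (0.0129), 1.01 for Cyp51 (0.0174), 1.70 for Tm7sf2 (0.00524), 1.42 for Msmo1 (0.0358), 0.66 for Ebp (0.0321) and 1.14 for Sc5d (0.0229) in the sterol steps. They were 0.53 for Scap (0.0189) and 0.94 for Insig1 (0.027) among the regulators, and 0.79 for Abcg5 (0.0238) and 1.04 for Abcg8 (0.00839) among the transport genes. In all 13, the log2 ratio was below 0 on both day 3 arrays. Day and slide cannot be told apart in these differences. Of the 13 calls, 0 held in all 16 alternative settings. The settings in which a call was lost ran from 2 for Tm7sf2 to 8 for Abcg5.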

How the results depend on the processing

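Among the 28 genes, for which the alternatives were run, each called direction held, with 0 reversals, under the planned settings. The day 3 count of 21 was 19 to 24 under the settings that kept both its arrays, and 11 to 24 when each array was left out in turn. In untreated mice the count of 1 became 0 without subtracting background, 0 from scanner-software ratios, 0 with no replicate block and 3 with the 4 arrays of its own slide (range 0 to 2 when each array was left out). In males at day 5 the count of 0 became 1 (Stard4) with the arrays of its own slide. In females the count of 1 became 0 from scanner-software ratios and 2 with the mean of all probes (1 to 4 when each array was left out). For day 5 minus day 3, the count of 13 became 4 without subtracting background, 8 with median centring and 1 from scanner-software ratios, and ran from 0 to 18 when each array was left out. Leaving out the dye term, the replicate block, gave counts of 21 at day 3, 13 in that difference, 1 in females and 0 in males at day 5. The contrast of sexes had 0 under every planned setting and 1 with the sign of the female ratios turned, chosen after seeing the data. The cause of these changes was not tested. The counts under alternative settings stand without the share of all genes passing. A change particular to the 28 and a change over all genes therefore cannot be told apart. With 2 arrays a comparison, standard errors had a median of 0.0784 for a log2 ratio and 0.111 for a difference. A slide block could not be fitted, since each comparison lies on 1 slide. Probes share their arrays, so their agreement is not replication.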
